A study of Gallus gallus with 14 samples.

Results

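Intronic lncRNAs are long non-coding RNAs whose exons all lie inside an intron of another annotated gene, which is called the host gene here. They were taken as the unknown lncRNA transcripts that the deposited annotation puts in class i, the Gffcompare class for a transcript contained within an intron of the annotation. Chromosomes 16, Z and W were left out. The rule gave 160 transcripts, out of 2576 unknown lncRNAs and 9977 lncRNAs in all. Another 10 class i transcripts lay on the chromosomes left out.

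The study asked which lncRNAs of the uterovaginal junction (UVJ) differ between hens with a long and a short duration of fertility (DF), the time after insemination over which a hen lays fertile eggs. All 14 hens were egg-type chickens (Gallus gallus) that were artificially inseminated, and 1 library of total RNA was made from the UVJ of each. The 7 long-DF hens were JH14, JH25, JH95, JH104, JF25, JF61 and JF64, and the 7 short-DF hens were JH49, JH68, JH109, JH130, JF21, JF40 and JF56. The 8 hens with the prefix JH and the 6 with the prefix JF were spread over both groups, and what the prefixes stand for is not given in the sources used here. No genotype, strain or treatment separates the groups in the labels, and the long-DF and short-DF hens were chosen by their own fertility records. The table held lncRNAs only, so marker mRNAs of the UVJ and the mRNAs of the host genes were not analysed here. The data came from whole tissue, in which fewer cells of a type and less RNA per cell cannot be told apart.

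The UVJ is the narrow band of the hen oviduct that holds the sperm storage tubules, in which sperm stay alive and are released over the following days. An intronic lncRNA can be read from the same strand as its host gene or from the opposite strand. An intron is itself transcribed together with its host gene before it is spliced out. Some intronic lncRNAs are known to act on the transcription or splicing of the gene around them, while for most no role is known.

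The 160 intronic lncRNAs came from 134 assembled loci in 125 host genes. Of these hosts, 93 were Ensembl genes, which held 118 intronic lncRNAs, and 32 were known lncRNAs of the NONCODE database, which held 42. The annotation gave a symbol for 77 of the Ensembl hosts, and 74 of them matched the RefSeq gene table of chicken, all as protein-coding genes. Most hosts held a single intronic lncRNA (103 hosts), while 14 held 2 and 8 held 3 or more. Of the 160, 92 were assembled on the minus strand and 68 on the plus strand. The strand of the host could be read for 13 hosts, from other transcripts that the annotation places antisense to the same gene. In these, 18 intronic lncRNAs lay on the strand opposite to the host and 5 on the same strand. The hosts read this way all have antisense transcripts, and 6 of the 18 belong to 1 locus in NONGGAT013829.1. Where such an antisense transcript shares the locus of an intronic one, the opposite strand may follow from the method. These counts therefore do not describe the hosts as a whole. Transcripts were found on 23 named chromosomes, and 3 were on sequences without a chromosome of that kind. The highest counts were on chromosome 1 (18), chromosome 4 (17), and chromosomes 2 and 5 (16 each).

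Intronic lncRNAs had few exons. Of the 160, 111 had 2 exons, 40 had 3 and 9 had more. The share with more than 3 exons was 5.62% among intronic lncRNAs, against 20.4% of the 1764 unknown intergenic lncRNAs and 19.4% of the 527 unknown lncRNAs antisense to an exon. Their median length was 621.5 bases, between the 689 bases of intergenic and the 525 bases of antisense lncRNAs. On the genome they covered a median of 2586 bases, close to intergenic lncRNAs (2445.5 bases) and less than antisense ones (4932 bases). Of the intergenic lncRNAs, 37.3% lay on sequences without a numbered chromosome, against 1.875% of intronic and 9.49% of antisense ones. The spans are therefore not from like parts of the genome. These are descriptions of the deposited transcripts without a test, since transcripts assembled from 1 locus share sequence. The annotation kept transcripts of at least 2 exons only, so 1-exon intronic transcripts were not analysed here.

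**Figure D1:**
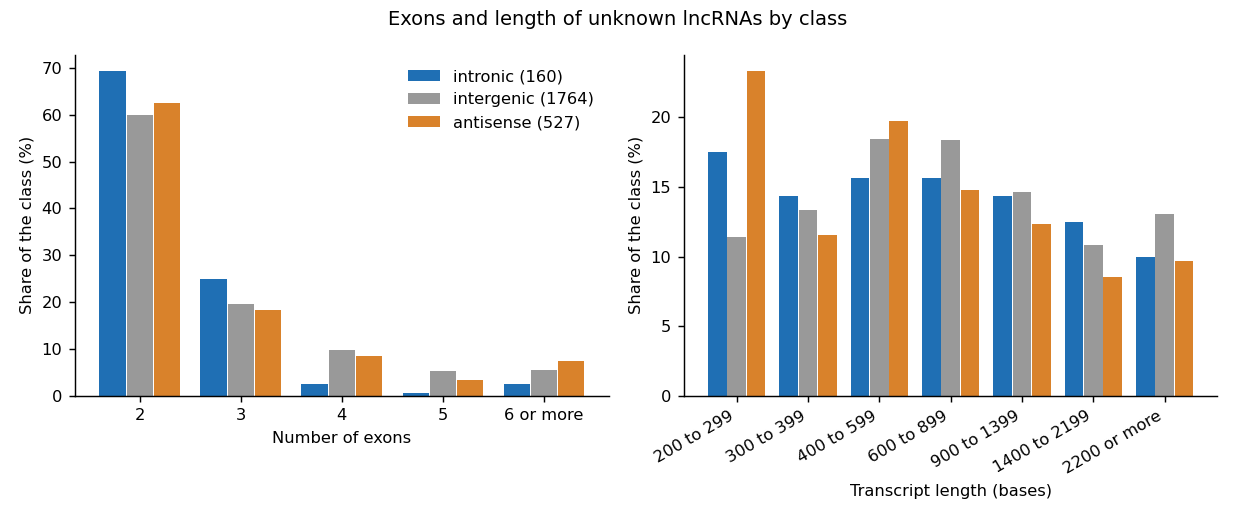
Bars show the share of each class of unknown lncRNA (%) by number of exons (left) and by transcript length in bases (right), for 160 intronic, 1764 intergenic and 527 antisense transcripts. Transcripts with 4 or more exons were rare among the intronic ones (5.62%), against 20.4% and 19.4% of the other classes.

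The structural extremes were in unrelated hosts. The 3 longest were MSTRG.23113.1 (5255 bases, in the known lncRNA NONGGAT009260.2), MSTRG.172.1 (5247 bases, in FRMD4A, a scaffold protein of epithelial polarity) and MSTRG.20547.1 (4443 bases, in ENSGALG00000005107). MSTRG.6728.1, in GSG1L (an auxiliary subunit of AMPA receptors), had the most exons, 8, over a mean FPKM of 0.261 ± 0.110 (SD, n = 14). MSTRG.16611.2 had 7 exons over 49180 bases, and it reached a mean FPKM of 10.7 ± 2.09 (SD, n = 14). MSTRG.19314.1 and MSTRG.21003.1, the last in DMBT1 (a secreted mucosal glycoprotein), had 6 exons each and only 23 and 9 fragments over all hens.

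Levels are given as FPKM, the fragments (read pairs) counted on a transcript per kilobase of its length, scaled to the size of the library. The hens had between 213304 and 281892 fragments on lncRNAs, of which 2.08% to 2.81% were on intronic lncRNAs. This share was 2.46% ± 0.226 in long-DF hens and 2.38% ± 0.246 in short-DF hens (SD, n = 7 each). In each hen between 128 and 144 of the 160 were detected. Detected members numbered 140 ± 2.52 in long-DF hens and 136.7 ± 5.65 in short-DF hens (SD, n = 7 each), with ranges of 135 to 143 and 128 to 144 that overlapped. Fragments were counted in every hen for 90 intronic lncRNAs, and in fewer than 7 hens for 14. The median intronic lncRNA had 63.5 fragments over all 14 hens together, and 66 had under 50. Intervals and floors below are for counting error alone and leave out variation between hens. The reads carried no molecular identifiers, and PCR duplicates may be among them.

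Their median level was close to that of the other classes of unknown lncRNA. The median of the mean FPKM was 1.13 for intronic, 1.15 for intergenic and 1.19 for antisense lncRNAs. Very high levels were less frequent, with 6.25% of intronic lncRNAs above a mean FPKM of 10, against 10.9% of intergenic and 12.0% of antisense ones. No test was made of these shares.

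**Figure D2:**
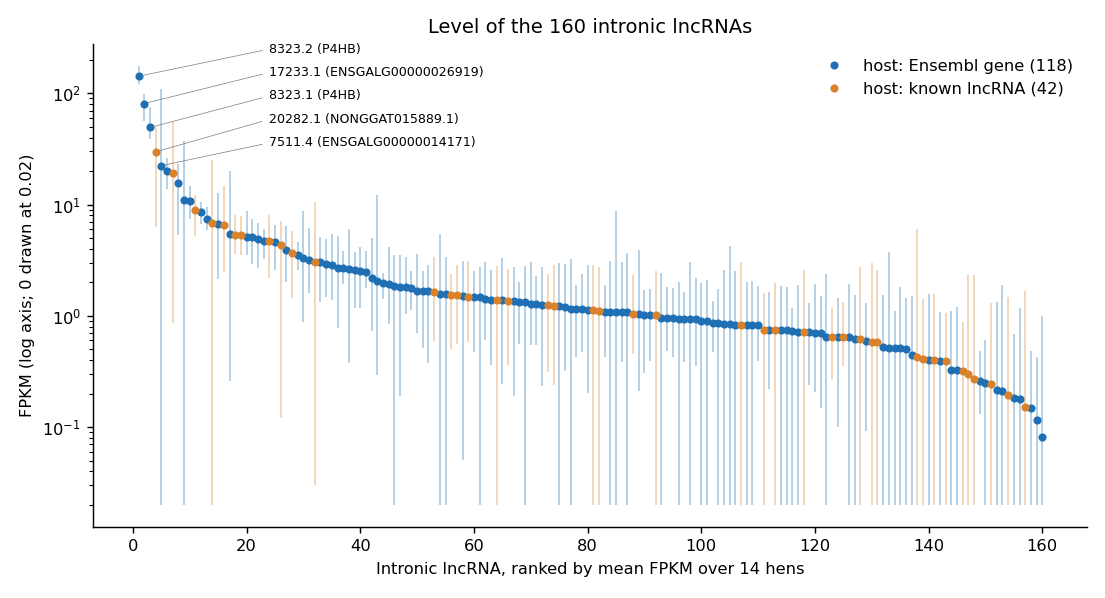
Each point is the mean FPKM of 1 intronic lncRNA over 14 hens on a log axis, ranked from high to low, and the vertical line runs from its lowest to its highest hen, with 0 drawn at 0.02. Colour gives the kind of host, and a few transcripts at the left lie far above the median of 1.13.

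A pair of transcripts in an intron of P4HB dominated the fragments. P4HB encodes protein disulfide isomerase, an enzyme of the endoplasmic reticulum that folds secreted proteins and is the beta subunit of collagen prolyl 4-hydroxylase. MSTRG.8323.2 and MSTRG.8323.1 lie on the minus strand of chromosome 18, from 10187715 and 10187683 to 10190237 on the Galgal4 genome, so they share most of their span. Together they held 45.0% of all fragments on intronic lncRNAs. MSTRG.8323.2 was at an FPKM of 122, 143 and 176 in long-DF hens (lowest, median and highest) and of 126, 140 and 148 in short-DF hens. The groups overlapped fully, and its coefficient of variation over hens, 9.99%, was the lowest among the 160. Its log2 fold change, long-DF over short-DF, was 0.07 (SE 0.12, edgeR adjusted p = 0.995). The shorter MSTRG.8323.1 averaged 49.3 ± 10.5 (SD, n = 14), with JF61 and JF56 the highest hens of their groups at 62.8 and 75.3. The transcripts overlap, and how fragments were split between them is not given in the sources used here.

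The other abundant transcripts lay in hosts of different kinds. MSTRG.17233.1, in ENSGALG00000026919 on chromosome 4, had an FPKM of 80.9 ± 13.5 from only 281 bases of transcript. MSTRG.20282.1, in an intron of the known lncRNA NONGGAT015889.1, averaged 29.8 ± 11.4, and JH25 was the lowest hen at 6.23 while the other long-DF hens reached up to 47.5. MSTRG.8743.4 averaged 15.6 ± 4.84 within SLC47A1, a transporter that expels organic cations (SD, n = 14 each). The 10 most abundant transcripts together held 65.7% of the fragments on intronic lncRNAs.

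MSTRG.14169.7, in NONGGAT005610.2 on chromosome 28, was abundant but uneven, at 19.1 ± 16.3 (SD, n = 14). Its FPKM was 4.51, 13.6 and 51.1 in long-DF hens and 0.870, 18.5 and 55.6 in short-DF hens (lowest, median and highest). JH25 and JH49 were the highest hens of their groups, and the groups overlapped. It is also among the transcripts named for a small p between the prefixes, with an FPKM of 12.6, 21.4 and 55.6 in JH hens and 0.870, 5.35 and 18.5 in JF hens. JH hens were mostly higher, but the ranges overlapped. The fit gave 1.73 for the log2 fold change, JH over JF (SE 0.52, edgeR adjusted p = 0.0639, exact permutation p = 0.00133), and the transcript was not called. The permutation p is not adjusted for the choice of this transcript on the same hens, so it is not separate support. With counts summed by locus the log2 fold change was 1.75 (SE 0.51, edgeR adjusted p = 0.0472), short of the fold limit of 2 used for calls.

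Many intronic lncRNAs had a higher mean FPKM than the lncRNA around them. The intronic transcripts were assembled from the reads of these hens, with an FPKM threshold, while the hosts are entries of a database. This choice favours a higher level of the intronic transcript, and no share for other lncRNAs was set beside it. FPKM is also scaled by length. MSTRG.21185.2 had the higher mean FPKM with 38 fragments, against 665 for its host. Of the 42 in a known lncRNA, 39 had that host in the same table. The mean FPKM of the intronic transcript was above that of its host in 30 of the 39 pairs, and in every hen in 10. A higher mean did not always hold in most hens. MSTRG.14169.7 averaged 19.1 against 16.1 for its host but was higher in only 4 of the 14 hens. MSTRG.20282.1 stood at 29.8 FPKM inside a host at 0.0780, which had 6 fragments over all hens. MSTRG.23113.1 stood at 3.04 inside a host at 0.0570 with 2 fragments. The reverse was also seen, for MSTRG.11836.1, which at 1.48 was below its host NONGGAT014367.1 at 4.08 in all 14 hens. Several pairs share a host and are not separate cases, since 6 of the 39 lie in NONGGAT013829.1. Host mRNA levels were not analysed here, so the same comparison was not made for Ensembl hosts.

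The first comparison asked whether intronic lncRNAs differ between long-DF and short-DF hens, and none did at the thresholds used. Calls needed an adjusted p of 0.05 or less, an unadjusted p of 0.01 or less and a log2 fold change of 2 or more in either direction. The quasi-likelihood test of edgeR was used, and p values were adjusted by Benjamini-Hochberg over all 6887 lncRNAs that reached an FPKM of 0.1 in at least 7 of 14 hens. This filter was passed by 144 of the 160 intronic lncRNAs. The other 16, with 4 to 64 fragments in all, were tested only in the alternative without the filter. Called were 0 of the 144, against 0 of 6887 (0%) over all lncRNAs, and DESeq2 and limma also called 0 of the 144 (DESeq2 called 2 over all lncRNAs). An unadjusted p under 0.05 was reached by 2 of the 144, which is 1.39%, against 2.12% of all lncRNAs tested. The median log2 fold change was 0.01 for the intronic lncRNAs and -0.02 for all. No intronic lncRNA that passed the filter had FPKM ranges in long-DF and short-DF hens that did not overlap, against 0.0436% of all lncRNAs tested.

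The smallest p belonged to MSTRG.8743.5, the second transcript of the SLC47A1 locus. It had 0, 1 and 67 fragments in long-DF hens and 0, 2 and 2 in short-DF hens (lowest, median and highest). Only JH14 with 67 and JF25 with 45 were high, and the other 5 long-DF hens had 0 to 4. The log2 fold change, long-DF over short-DF, was 3.37 (SE 1.12, edgeR adjusted p = 0.995). An exact permutation test on log2(FPKM + 0.1) over all 3432 splits of the hens gave p = 0.32. JH14 and JF25 were also the lowest hens for the overlapping MSTRG.8743.4, with 45 fragments each against up to 184 in other hens. Summed over both transcripts, the locus had 90 to 184 fragments per hen, and its log2 fold change was -0.17 (SE 0.16, edgeR adjusted p = 0.997).

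MSTRG.7511.4, in ENSGALG00000014171 at 9845 to 12371 on chromosome 17, came next. Its FPKM was 0, 32.5 and 109 in long-DF hens and 0, 3.17 and 18.3 in short-DF hens (lowest, median and highest). The groups overlapped, since JH104 had no fragment and JH14 only 7 among the long-DF hens. The fit gave a log2 fold change of 2.19 (SE 0.91, edgeR p = 0.0298, adjusted p = 0.995, exact permutation p = 0.274). The locus holds 2 more intronic transcripts, and MSTRG.7511.2 ran the other way, with medians of 0 in long-DF and 21.9 in short-DF hens. Over the 3 transcripts together the log2 fold change was 0.77 (SE 0.66, edgeR adjusted p = 0.997).

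Among the other members with a small p, the higher values in long-DF hens were in PBX3, DNPEP and ENSGALG00000008449, and the lower ones in SUZ12, DOT1L, KIAA1217, SPRY1 and NONGGAT014669.1. MSTRG.7956.1 lies in PBX3, which encodes a homeobox transcription factor. It had an FPKM of 0.812, 1.20 and 1.72 in long-DF hens and 0.306, 0.805 and 1.41 in short-DF hens, with a log2 fold change of 0.59 (SE 0.29, edgeR adjusted p = 0.995). MSTRG.21635.1 lies in DNPEP, an aspartyl aminopeptidase, and its log2 fold change of 0.95 (SE 0.58, edgeR adjusted p = 0.995) leaned on JF25, the hen with 21 of its 71 fragments. MSTRG.80.1, in ENSGALG00000008449, had 34 fragments in all and a log2 fold change of 1.3 (SE 0.65, edgeR adjusted p = 0.995).

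MSTRG.8184.1 lies in SUZ12, a subunit of Polycomb repressive complex 2. It had 0, 2 and 3 fragments in long-DF hens and 2, 3 and 7 in short-DF hens, so the groups overlapped. The fit gave a log2 fold change of -1.03 (SE 0.48, edgeR p = 0.0504, adjusted p = 0.995), with an exact permutation p of 0.0355. MSTRG.14194.1, in the histone H3 methyltransferase gene DOT1L, had 2, 3 and 7 fragments in long-DF hens and 3, 5 and 9 in short-DF hens, with a log2 fold change of -0.64 (SE 0.36, edgeR adjusted p = 0.995). The values for KIAA1217 (MSTRG.9240.16, -0.41), SPRY1 (MSTRG.17981.4, an inhibitor of growth factor signalling, -0.52) and NONGGAT014669.1 (MSTRG.15106.1, -1.17) were also within the spread between hens. Exact permutation tests were run for 64 named intronic lncRNAs in each of the comparisons of all hens, and the smallest p they can give is 0.000583 for long-DF against short-DF.

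A list of 53 genes that the study or textbooks link to the UVJ, sperm storage or the hen oviduct was looked up by symbol. Of these, 1 was found as a host, TGFB2. The 16 Ensembl hosts with only an ID could not match, nor could genes on chromosomes 16, Z and W. TGFB2 encodes a transforming growth factor beta, a secreted signal of tissue growth and immune tolerance. MSTRG.14860.1, on the plus strand of chromosome 3 at 18751281 to 18752465, had 1, 4 and 10 fragments in long-DF hens and 1, 2 and 8 in short-DF hens. The groups overlapped over most of their range. The fit gave a log2 fold change of 0.28 (SE 0.55, edgeR adjusted p = 0.995), and no difference was detected at these low counts.

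A list of 223 lncRNAs, out of 9977 in all, was chosen by the study on these same hens. It is therefore not independent evidence of a direction. The list holds 7 of the 160 intronic lncRNAs, and no test of these shares was made. The 7 were MSTRG.6385.5, MSTRG.13790.1, MSTRG.23113.1, MSTRG.1188.3, MSTRG.1188.1, MSTRG.10033.6 and MSTRG.13739.2. The paper reports the listed lncRNAs as differing between long-DF and short-DF hens, from edgeR with the same limits on fold change and p. It also reports qPCR of some listed lncRNAs with similar fold changes, but none of these 7 was among them. The paper has MSTRG.6385.5 among its top up-regulated lncRNAs in long-DF hens. Here the locus of MSTRG.6385.5 had a log2 fold change of -0.46, long-DF over short-DF (SE 1.24, edgeR adjusted p = 0.997). In the fit over all 14 hens used here none of the 7 was called. The 6 that passed the filter had an edgeR adjusted p of 0.995 each. This fit called 0 of all 6887 lncRNAs tested between long-DF and short-DF hens, so it did not return that list. The cause of the difference was not tested. MSTRG.13790.1, in RDM1 (a gene of DNA repair), had an FPKM of 2.91, 4.24 and 7.47 in long-DF hens and 4.17, 4.97 and 7.35 in short-DF hens. Between long-DF and short-DF hens the log2 fold change was -0.19 (SE 0.20). It averaged 5.87 ± 1.31 in JH hens (SD, n = 8) and 4.03 ± 0.828 in JF hens (SD, n = 6), with overlapping ranges. That log2 fold change, JH over JF, was 0.42 (SE 0.16, edgeR adjusted p = 0.167, exact permutation p = 0.00932). MSTRG.10033.6 did not pass the filter, with 6 hens above 0, and without the filter its log2 fold change was 1.36 (edgeR adjusted p = 0.993). Of the remaining 5, MSTRG.6385.5, MSTRG.23113.1 and MSTRG.13739.2 had an edgeR adjusted p of at most 0.05 between JH and JF hens, and the TBXAS1 pair was absent from some hens of both groups.

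The second comparison set JH against JF hens, with the fertility group as a covariate, and here 9 of the 144 intronic lncRNAs were called. That is 6.25%, against 2.76% of all 6887 lncRNAs tested. MSTRG.6385.5, MSTRG.4151.1, MSTRG.2581.1 and MSTRG.4592.1 were higher in JH hens, which is 2.78% of the 144 against 1.6% of all. MSTRG.23113.1, MSTRG.1902.1, MSTRG.13746.2, MSTRG.16221.1 and MSTRG.5705.1 were lower in JH hens, 3.47% against 1.16%. The filter of 7 hens can be met by the 8 JH hens alone but not by the 6 JF hens alone. The 4 called higher in JH hens reached 0.1 FPKM in all 8 JH hens, so the JH hens alone met the filter. MSTRG.1902.1 passed with the 6 JF hens and 1 JH hen, JH95. MSTRG.13746.2 had fragments in the 6 JF hens and in only 2 JH hens. The shares higher and lower in JH hens are therefore not on an equal footing. With no limit on the fold change, 14 had an adjusted p of at most 0.05, 9.72% of the 144 against 6.93% of all. An unadjusted p under 0.05 was reached by 42 of the 144, 29.2% against 19.5%. The FPKM ranges of JH and JF hens did not overlap for 8 of the 144, which is 5.56% against 3.53%. No test of these shares was made, and several of the counts are small. The median log2 fold change, JH over JF, was -0.12 for the intronic lncRNAs and 0.02 for all lncRNAs tested. These medians depended on the method, and were -0.0023 and 0.049 with limma and a pseudocount of 1.

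The library totals behind the FPKM differed along with the prefix. They were taken back from the deposited counts, lengths and FPKM. These totals averaged 6665190 ± 564980 in JH hens (SD, n = 8) and 7619510 ± 624583 in JF hens (SD, n = 6). The main fit instead took its library size from fragments on the lncRNAs tested. Fragments on all lncRNAs averaged 230915 ± 23687 in JH hens and 239694 ± 18621 in JF hens (SD, n = 8 and 6). With the totals behind the FPKM as the library size in place of TMM, 8 intronic lncRNAs were called. These were the 9 of the main fit without MSTRG.5705.1. The median log2 fold change, JH over JF, was then -0.0067 for the intronic lncRNAs and 0.14 for all. Beyond such changes of scaling, the part of library size in the calls was not tested. Of the 9 called between JH and JF hens, none was called between long-DF and short-DF hens.

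**Figure D3:**
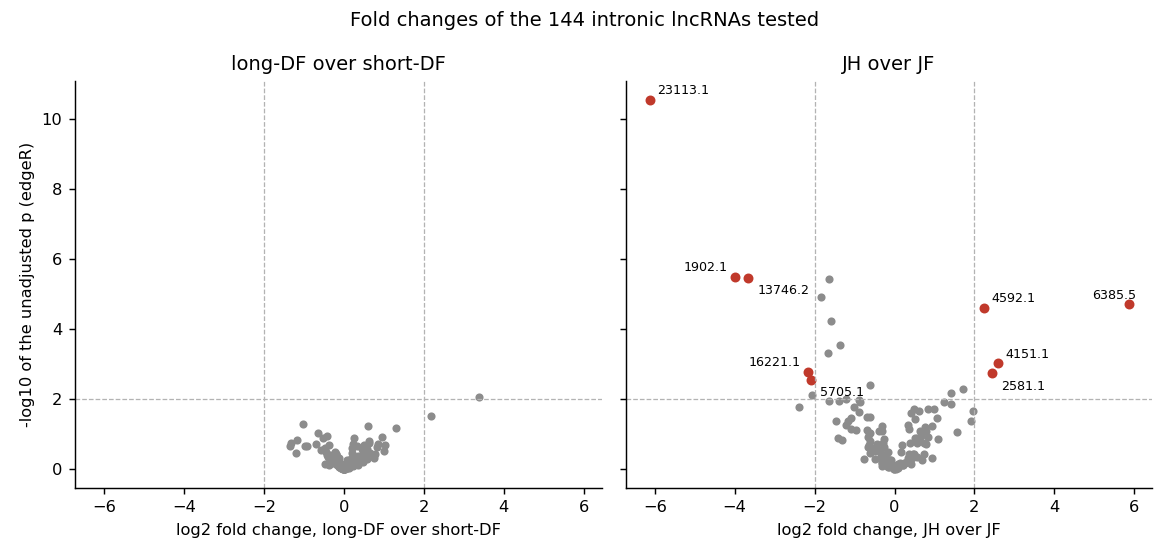
The log2 fold change is plotted against -log10 of the unadjusted edgeR p for the 144 intronic lncRNAs tested, for long-DF over short-DF (left) and JH over JF (right). Dashed lines mark a log2 fold change of 2 either way and a p of 0.01, and red points are the 9 called between JH and JF hens.

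MSTRG.23113.1 had the smallest p. It lies on the plus strand of chromosome 9, from 11077713 to 11088371, with 2 exons in the known lncRNA NONGGAT009260.2. The FPKM was 0.0303, 0.0858 and 0.306 in JH hens and 4.98, 6.40 and 10.6 in JF hens (lowest, median and highest). All 8 JH hens had 1 to 10 fragments, while all 6 JF hens had 209 to 396, so the groups were far apart. The log2 fold change, JH over JF, was -6.13 (SE 0.33, edgeR adjusted p = 6.49e-08). The exact permutation test on log2(FPKM + 0.1) gave p = 0.000333, the smallest possible. Both fertility groups contain JH and JF hens, and the log2 fold change between long-DF and short-DF hens was -0.37 (SE 1.3, edgeR adjusted p = 0.995). It was also called among the 7 long-DF hens alone and among the 7 short-DF hens alone.

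MSTRG.6385.5 showed the opposite pattern with 1 exception. It lies on the minus strand of chromosome 14, from 1267801 to 1270704, in the known lncRNA NONGGAT013469.1. The deposited annotation puts this transcript in class i, while the study lists it as intergenic. Its FPKM was 0.275, 11.3 and 25.1 in JH hens and 0, 0.0540 and 0.713 in JF hens (lowest, median and highest). Of the JH hens, 7 had 153 to 420 fragments and JH95 had 5, at the level of the JF hens, which had 0 to 15. The log2 fold change was 5.86 (SE 0.93, edgeR adjusted p = 0.00155, exact permutation p = 0.000999). The host NONGGAT013469.1 itself had 130 fragments in 10 hens.

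The remaining transcripts that were higher in JH hens lay in protein-coding hosts. MSTRG.4592.1 is in CTDSPL2, a phosphatase of the family that acts on RNA polymerase II. It had an FPKM of 0.887, 2.17 and 3.31 in JH hens and 0.246, 0.362 and 0.643 in JF hens, without overlap, and a log2 fold change of 2.24 (SE 0.36, edgeR adjusted p = 0.00183). MSTRG.4151.1 is in TRPM1, a cation channel known from retinal cells and melanocytes. It had 28 fragments in 8 JH hens and 3 in 6 JF hens, and the ratio per fragment counted on lncRNAs was 7.27 (exact 95% interval 2.24 to 37.3). Its call was lost without JF61, at an edgeR adjusted p of 0.0509. MSTRG.2581.1 is in CTPS2, a CTP synthase. It had an FPKM of 1.31, 6.82 and 20.04 in JH hens and 0.261, 1.36 and 2.23 in JF hens, and JH95 and JH130 fell within the range of the JF hens. Its log2 fold change was 2.43 (SE 0.63, edgeR adjusted p = 0.0337). JH14, JH25 and JH104, all of the long-DF group, were the 3 highest hens for it, and the log2 fold change between long-DF and short-DF hens was 1.03 (SE 0.76, edgeR adjusted p = 0.995). The call between JH and JF hens was lost when any 1 of JH14, JH104, JF25, JF61, JF64, JH49, JH109 and JF40 was left out, and over all hens left out in turn the edgeR adjusted p was 0.0151 to 0.0862.

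The remaining transcripts that were lower in JH hens rested on few fragments. MSTRG.1902.1 is in ARHGAP31, which inactivates the small GTPases CDC42 and RAC1. It had 1 fragment in 8 JH hens and 24 in 6 JF hens, a ratio of 0.0324 (exact 95% interval 0.000789 to 0.199) per fragment counted on lncRNAs. Among the JF hens the 3 long-DF hens had 1, 3 and 2 fragments and the 3 short-DF hens had 6 each. Within JF the log2 fold change, long-DF over short-DF, was -1.59 (SE 0.41, edgeR adjusted p = 0.993). MSTRG.16221.1 is in SMAP1, a GTPase-activating protein of vesicle transport, with 10 fragments in JH hens and 40 in JF hens. The log2 fold change was -2.17 (SE 0.56, edgeR adjusted p = 0.0311), and JH and JF hens overlapped. MSTRG.5705.1 is in RYBP, a component of Polycomb repressive complex 1. It had 4 fragments in JH hens and 16 in JF hens, and its log2 fold change was -2.10 (SE 0.58, edgeR adjusted p = 0.0436). With each hen left out in turn the edgeR adjusted p was 0.0166 to 0.0712 for MSTRG.16221.1, whose call was lost without JH14, JF64, JH49, JH68, JH109, JF21, JF40 or JF56. It was 0.0352 to 0.115 for MSTRG.5705.1, whose call was kept only without JH104, JF61, JH130 or JF40.

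ENSGALG00000024248 on chromosome 27 held transcripts that moved together. MSTRG.13746.2, at 275672 to 278425, had 2 fragments in 8 JH hens and 29 in 6 JF hens, a ratio of 0.0537 (exact 95% interval 0.00621 to 0.212). MSTRG.13739.2, at 208338 to 210467, had an FPKM of 0.0928, 0.291 and 0.493 in JH hens and 0.806, 0.880 and 1.31 in JF hens. Its log2 fold change was -1.85 (SE 0.28, edgeR adjusted p = 0.00113), short of the fold limit. JH and JF hens did not overlap for either. They are separate loci, both on the strand of the host, and the other intronic lncRNA there, MSTRG.13747.1, on the opposite strand, had only 4 fragments in all.

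The other 4 transcripts with an adjusted p of at most 0.05 were also lower in JH hens. MSTRG.29055.5, in ENSGALG00000028293, had an FPKM of 0.779, 1.55 and 2.02 in JH hens and 3.36, 4.61 and 5.21 in JF hens, with a log2 fold change of -1.64 (SE 0.22, edgeR adjusted p = 0.000546). The other 3 were named after their values were seen. MSTRG.4028.1 and MSTRG.4029.1 are neighbouring loci in REC114, a gene needed for the DNA breaks of meiosis, and their log2 fold changes were -1.38 (SE 0.29, edgeR adjusted p = 0.00977) and -1.66 (SE 0.37, edgeR adjusted p = 0.0142). MSTRG.10463.3, in NONGGAT004217.2, averaged 0.713 ± 0.421 in JH hens (SD, n = 8) and 1.94 ± 0.430 in JF hens (SD, n = 6), with a log2 fold change of -1.60 (SE 0.28, edgeR adjusted p = 0.00337).

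**Figure D4:**
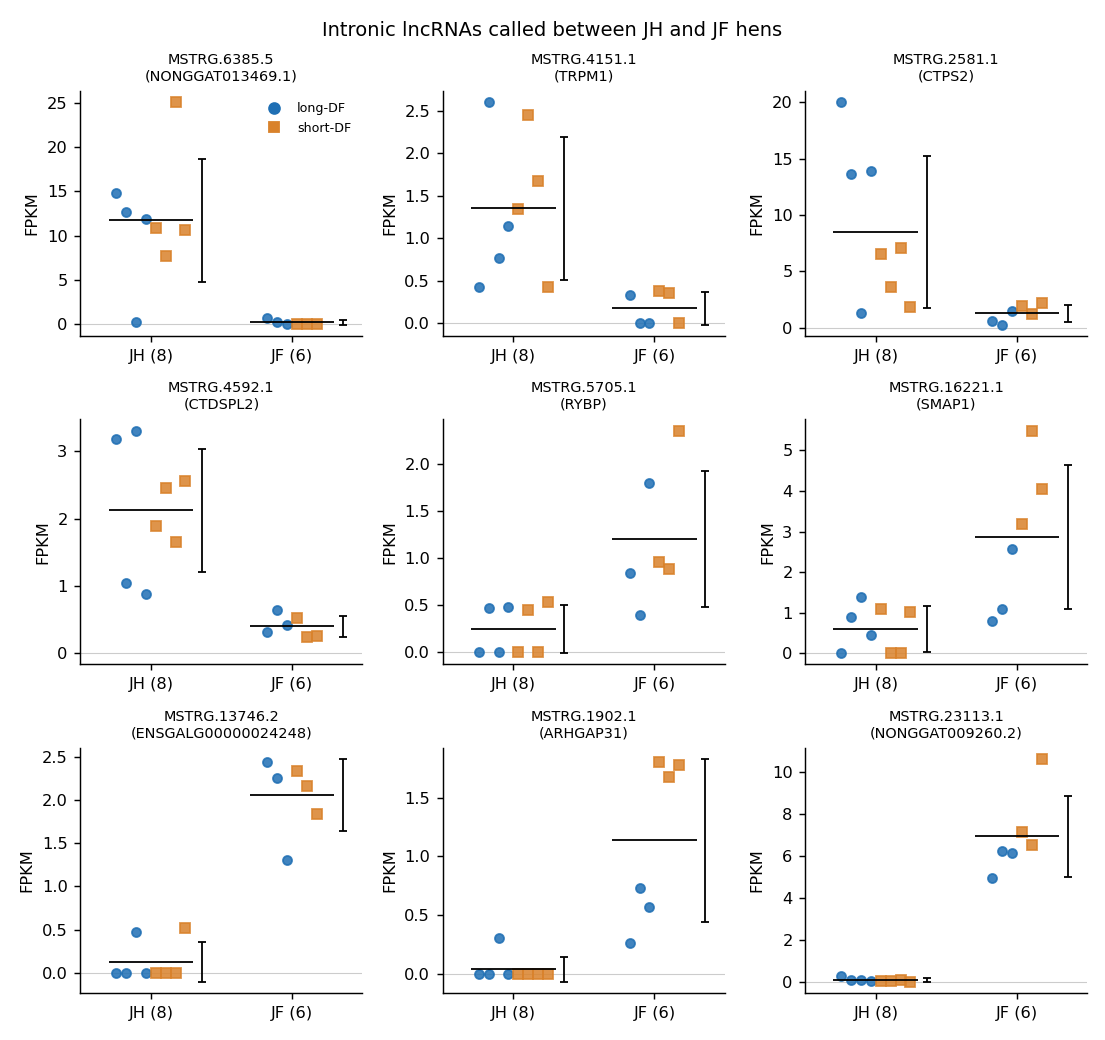
Points are the FPKM of each of the 8 JH and 6 JF hens for the 9 intronic lncRNAs called between them, with circles for long-DF and squares for short-DF hens, lines at the mean and bars of 1 SD. JH hens lie lower for MSTRG.23113.1, with 0.0303 to 0.306 against 4.98 to 10.6 in JF hens, and JH95 is the 1 low JH hen for MSTRG.6385.5.

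Within a prefix no intronic lncRNA was called between long-DF and short-DF hens. Among the 8 JH hens 0 of 144 were called, against 0.0145% of all lncRNAs tested, and 8 (5.56%) had an edgeR p under 0.05, against 3.93%. Among the 6 JF hens 0 were called, against 0.0581%, and 10 (6.94%) had a p under 0.05, against 3.62%. The effect of the fertility group was also tested for a difference between the prefixes, as an interaction term in edgeR. It was called for 0 of the 144 and 0% of all, and 9 (6.25%) had a p under 0.05, against 4.47%. DESeq2 called 0 of the 144 in each of these tests as well. MSTRG.16611.2, the transcript with 7 exons, had one of the smaller p values within JH, with a log2 fold change of 0.58 (SE 0.19, edgeR adjusted p = 0.993), and over all 14 hens it was 0.23 (SE 0.17). The difference of its effect between the prefixes was 0.65 on the log2 scale (SE 0.26, edgeR adjusted p = 0.999904).

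Where a locus held several intronic transcripts, single transcripts mostly varied more than the locus sum. There were 18 such loci with 44 transcripts, and in 14 of the loci every transcript had a higher coefficient of variation over hens than the summed FPKM of the locus. The median coefficient was 39.8% for the locus sums and 133% for the most variable transcript of each locus. By arithmetic a sum cannot have a higher coefficient than its most variable part, so the direction of this contrast was fixed in advance. In 16 loci at least 1 transcript was at 0 in some hen, although no hen was at 0 for the locus. Such transcripts overlap and are not separate measurements, and how fragments were assigned among them is not given in the sources used here.

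One of these loci lies in TBXAS1. The gene encodes thromboxane A synthase, and its intron holds 4 overlapping transcripts on chromosome 1 between 55927839 and 55931036. MSTRG.1188.1 and MSTRG.1188.3, with 3 exons each, had no fragment in JH14, JF64, JH49, JH68 and JF56. In the other 9 hens they had 8 to 55 and 15 to 53 fragments. MSTRG.1188.2 and MSTRG.1188.4, with 2 exons each, were counted in all 14 hens. The summed locus had 52 to 245 fragments in every hen, with a log2 fold change of 0.30 between long-DF and short-DF hens (SE 0.27, edgeR adjusted p = 0.997). For MSTRG.1188.3 alone it was 0.76 (SE 1.02) and for MSTRG.1188.1 0.13 (SE 1.08, edgeR adjusted p = 0.995 each). The hens without these transcripts came from both fertility groups and both prefixes.

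The intron of NONGGAT013829.1 on chromosome 2 held 6 transcripts of a single locus, the most of any host. All lie on the strand opposite to the host. MSTRG.10033.2 and MSTRG.10033.6 were counted in the same 6 hens, JH25, JH95, JH104, JF61, JH49 and JF21, and in no other. The other 4 transcripts were counted in all 14 hens. The sum of all 6 was among the steadiest of the 18 loci, with 147 to 229 fragments per hen and a coefficient of variation of 12.2%. The locus had a log2 fold change of -0.04 between long-DF and short-DF hens (SE 0.11, edgeR adjusted p = 0.997).

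**Figure D5:**
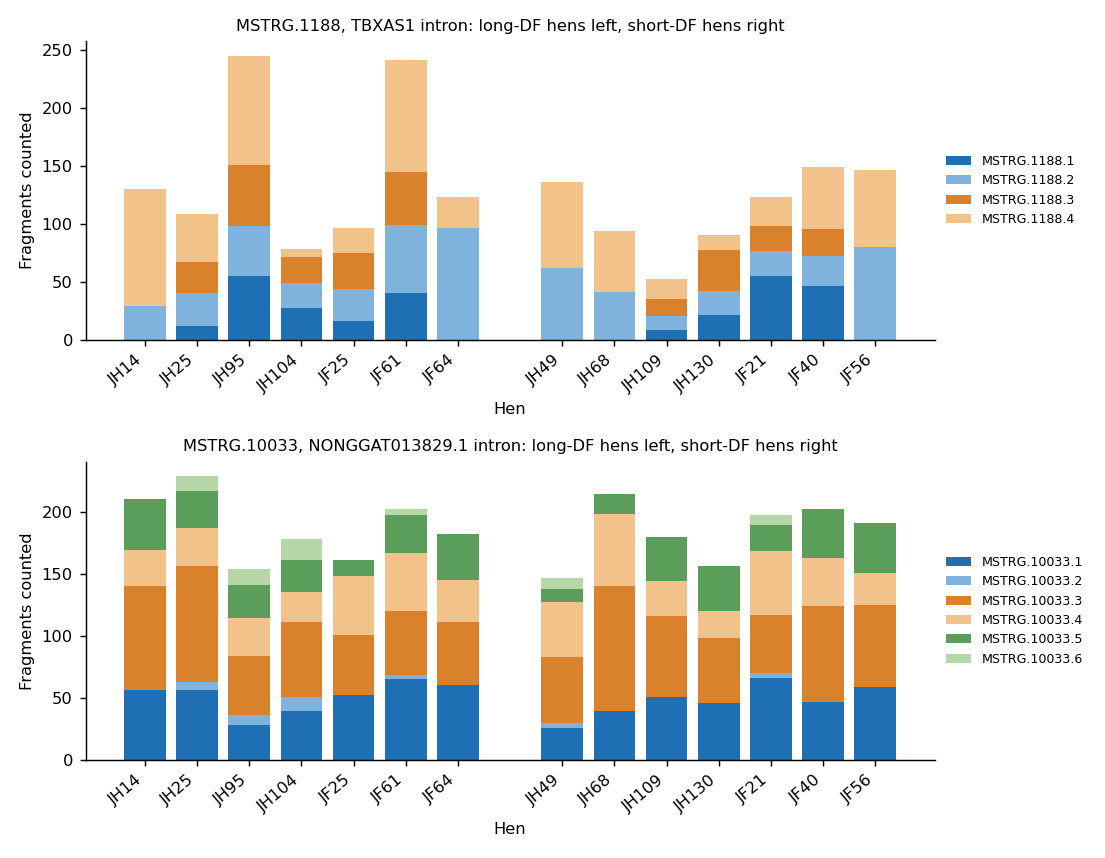
Stacked bars give the fragments counted per hen on each intronic transcript of the TBXAS1 locus (top) and of the NONGGAT013829.1 locus (bottom), long-DF hens left and short-DF hens right. MSTRG.1188.1 and MSTRG.1188.3 are missing from 5 hens while the locus total stays between 52 and 245 fragments.

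The other hosts with 3 or more intronic lncRNAs ranged from even to uneven over hens. ENSGALG00000025781 on chromosome 25 held 4 separate loci, of which MSTRG.13357.1 (8.58 ± 1.23 FPKM) and MSTRG.13375.1 (7.48 ± 1.08 FPKM) varied little over hens, MSTRG.13369.1 was at 2.52 ± 0.917 and MSTRG.13353.1 at 0.720 ± 0.480 (SD, n = 14 each). FAR2, a fatty acyl-CoA reductase, held 3. Its MSTRG.1562.2 had no fragment in 6 hens, while the overlapping MSTRG.1562.1 was counted in every hen with 1 to 55 fragments. PBX3 held 3, with mean FPKM of 0.323 to 1.56. In NONGGAT015681.1 on chromosome 5 the 3 overlapping transcripts had 161, 33 and 13 fragments in all, and MSTRG.19770.1 was counted in 2 hens only, JH49 with 10 fragments and JH14 with 3.

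Some intronic lncRNAs were carried by single hens. Among those with over 20 fragments in all, the largest share in 1 hen was 61.9% for MSTRG.18802.3 in BBOX1 (an enzyme of carnitine synthesis), where JH104 had 13 of 21 fragments. For MSTRG.19770.3 JH109 had 60.6%, for MSTRG.13800.6 in ENSGALG00000000367 JF64 had 54.5%, for MSTRG.23342.1 in NONGGAT009355.2 JH109 had 53.1%, and for MSTRG.8743.5 JH14 had 51.9%. Most of these 5 overlap another intronic transcript of the same locus, MSTRG.23342.1 being the exception. MSTRG.22029.1, in NONGGAT016334.1 on chromosome 8, was the only one counted in a single hen, with all 11 fragments in JF40. In each of the other 13 hens a count of 0 allows up to 3 fragments.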

How the data were processed

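The authors aligned reads with TopHat to Galgal4, assembled transcripts with StringTie, classed them with Gffcompare, and removed transcripts with coding potential. The deposited table holds raw counts of fragments per lncRNA and hen, not normalized, and the FPKM that the authors computed from count, length and library total. Which tool counted them, and whether it used strand, is not given in the sources used here. A deposited annotation on Galgal4 gives exons, class and host.

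Counts were tested with edgeR 4.0.16 (TMM, quasi-likelihood F test) in R 4.3.3, fitted on the 6887 lncRNAs that reached 0.1 FPKM in 7 or more hens, also within a prefix, with Benjamini-Hochberg adjustment. SE was taken back from F, as the size of the log2 fold change over the root of F. Single transcripts were also compared by exact two-sided permutation tests on log2(FPKM + 0.1). These p values were not adjusted for the number of tests. Some of the transcripts were named for a small p in the same hens. For called transcripts with few fragments, ratios are given with exact 95% intervals. These pool the fragments of all hens of a prefix and do not include variation between hens. Alternatives were DESeq2 1.42.0, limma 3.58.1, other filters, scaling and covariates, locus sums, and leaving out each hen. The scripts were tested on simulated data. Python 3.11.15 was used with pandas 2.3.3 and scipy 1.17.1.

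Transcripts named were those called, the 5 of smallest p either way, the 10 most abundant, those in the study's list of 223 lncRNAs or in one of 53 host genes, the 5 most concentrated in 1 hen, those in hosts with 3 or more, the 3 longest and those with most exons. Of these, 1 is not reported here. Members and lists were chosen with earlier results of these data known. All 14 hens were used. No genome or sequence of this build was used.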

Additional observations from a re-analysis of the deposited data

Results flagged for a closer look

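A hen far from the others of its group was found in 6 of 66 sets of values checked, by comparing its gap to the nearest hen with the whole range of the group. Chance would give about 1 in 20 for independent, normally distributed values. Some of these transcripts are sparse or were chosen for a small p, and the sets share hens, so that rate need not hold here. JH14 had 135 intronic lncRNAs detected, the lowest among the long-DF hens. JH109, with an FPKM of 25.1 for MSTRG.6385.5, was the highest short-DF hen. JF25, with 3.92 for MSTRG.21635.1 in DNPEP, was the highest long-DF hen. Between the prefixes, JF25 was the highest JF hen for MSTRG.6385.5 at 0.713, from 15 fragments. JH14 was the highest JH hen for MSTRG.23113.1 at 0.306, from 10 fragments. JH95 was the only JH hen with a fragment of MSTRG.1902.1 in ARHGAP31, at 0.305.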

How the results depend on the processing

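No paired analysis was possible because long-DF and short-DF hens share no number, and JH and JF hens share only 1, that of JH25 and JF25. The counts of called intronic lncRNAs between long-DF and short-DF hens, within JH, within JF and for the difference between the prefixes stayed at 0 under each alternative run. Between JH and JF hens the 9 called became 5 with an FPKM of at least 0.5, where fewer lncRNAs were tested, and 2 with limma and a pseudocount of 1. With a smaller number of hens, chosen after seeing the data, 1 was called in long-DF hens only and 4 in short-DF hens only. Leaving out each hen gave 6 to 11, and the other alternatives 6 to 10. MSTRG.6385.5 was called under all 22 alternatives over single transcripts that used both fertility groups, MSTRG.2581.1 under 12, MSTRG.16221.1 under 11 and MSTRG.5705.1 under 7. The log2 fold change, long-DF over short-DF, turned its sign for 3 transcripts that were not called. It ran between -0.85 and 0.24 for MSTRG.6385.5, between -0.77 and 0.24 for MSTRG.23113.1, and between -0.34 and 0.73 for MSTRG.1188.1 when each hen was left out, and it was 0.12 for MSTRG.23113.1 with limma. The cause was not tested. Counts were low for many transcripts, with 66 of the 160 under 50 fragments over all hens, and the part of depth was not tested.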
